A study of Mus musculus with 24 samples.

Results

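The cell division genes described here are 36 genes whose products copy DNA or build, run and close the mitotic spindle. They were taken by symbol from a list of members, and all 36 stood among the 24958 named genes of the deposited left ventricle (LV) table. Of these, 9 act in S phase (Mcm2 to Mcm7, Pcna, Rrm2 and Tyms) and 27 act in mitosis and cytokinesis.

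The table holds bulk mRNA sequencing of the LV free wall of 24-month-old mice, in 24 libraries and 6 groups of 4. Ctrl + AngII were control females given angiotensin II (AngII) for 4 weeks by a subcutaneous pump, and Ctrl were females with neither ovariectomy nor AngII. Ovx + AngII and Ovx were females ovariectomized at 12 months, with and without the same infusion. Male Gx were gonadectomized at 12 months, and male Ctrl were intact males. AngII is the hormone at the end of the renin cascade and is known to constrict vessels and raise blood pressure. Control surgery was a sham operation with no vehicle pump. The females were C57BL6/J, the strain of the males is not given in the sources used here, and each library was a pool of RNA from a pair of mice, so the spread within a group is one between pools. How the Ctrl + AngII pools were made up is not settled, because an animal given AngII at this age was lost before the end. Libraries are called by their numbers: 40, 41, 42 and 52 in Ctrl + AngII, 37, 38, 39 and 51 in Ctrl, 46, 47, 48 and 54 in Ovx + AngII, 43, 44, 45 and 53 in Ovx, 34, 35, 36 and 50 in male Gx, and 31, 32, 33 and 49 in male Ctrl. Values of a group are always given in this order.

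As background, a dividing cell first licenses its replication origins with the Mcm2 to Mcm7 helicase, copies its DNA with the sliding clamp Pcna, and then switches on cyclin B and Cdk1 to enter mitosis. The spindle checkpoint holds chromosomes until kinetochores are attached, and the anaphase-promoting complex (APC/C) then lets them part. Adult mouse cardiomyocytes rarely divide, so that most division in an adult ventricle is known from fibroblasts, endothelial cells and leukocytes. In many mitotic genes the complex called DREAM represses transcription in resting cells through a promoter element named CHR, often beside CCAAT boxes that bind NF-Y, whereas S phase genes are known for E2F sites.

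The promoters of the members were read for these elements, since they are a feature that the choice of members did not use. RefSeq promoters (build GRCm38.p6, 250 bases before to 50 after the start) were matched for 30 of the 36 members, and Mcm4, Ccna2, Foxm1, Aurkb, Kif20a and Tpx2 had none here. On either strand, the CHR letters TTTGAA were in 17 of 22 mitotic promoters (77.3%), in 1 of 8 S phase promoters (12.5%, Mcm2) and in 20.2% of the promoters of all 27025 genes with a RefSeq promoter. CCAAT was in 19 of 22 mitotic promoters (86.4%), in 7 of 8 S phase promoters (87.5%) and in 41.1% of all genes. A word of the E2F kind (TTGGCGC or TTCCCGC or TTCGCGC or TTGCCGC) was in 4 of 22 mitotic promoters (18.2%), in 5 of 8 S phase promoters (62.5%) and in 10.9% of all genes. CHR and CCAAT were in the same promoter for 16 mitotic members (72.7%), against 7.97% of all genes. These are matches of letters and not sites shown to be bound, an E2F word can overlap the reversed CCAAT box, and E2F words can overlap each other.

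The following stretches of 120 bases just before the start show both kinds of promoter, with matches to any of the 3 motifs in capitals. Cdk1 (chr10:69352913-69353032), Top2a (chr11:99024190-99024309) and Cdc20 (chr4:118437344-118437463) were chosen as mitotic members with CHR letters close to the start, Cenpf (chr1:189688087-189688206) because the results turn on it, and Mcm3 (chr1:20820313-20820432) and Mcm6 (chr1:128359706-128359825) as S phase members. All 6 lie on the minus strand and are printed 5′ to 3′ along the gene.
Cdk1: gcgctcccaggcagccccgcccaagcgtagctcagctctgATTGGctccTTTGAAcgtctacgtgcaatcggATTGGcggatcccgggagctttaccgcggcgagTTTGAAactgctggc
Top2a: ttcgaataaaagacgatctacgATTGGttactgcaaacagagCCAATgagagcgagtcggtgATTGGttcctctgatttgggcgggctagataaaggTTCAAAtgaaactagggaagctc
Cdc20: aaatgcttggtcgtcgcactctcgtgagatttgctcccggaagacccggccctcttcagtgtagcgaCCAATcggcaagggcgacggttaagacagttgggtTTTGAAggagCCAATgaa
Cenpf: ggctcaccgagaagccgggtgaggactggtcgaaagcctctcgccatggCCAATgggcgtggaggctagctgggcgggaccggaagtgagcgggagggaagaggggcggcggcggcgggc
Mcm3: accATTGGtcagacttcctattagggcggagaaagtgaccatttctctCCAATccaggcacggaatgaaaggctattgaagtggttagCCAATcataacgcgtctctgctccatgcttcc
Mcm6: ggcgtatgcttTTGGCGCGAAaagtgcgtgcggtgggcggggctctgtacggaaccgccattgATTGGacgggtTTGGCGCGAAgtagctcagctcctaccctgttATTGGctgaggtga
Cdk1 showed the CHR letters at 2 places, each after a reversed CCAAT box (ATTGG), and Top2a had them reversed (TTCAAA) beside 3 CCAAT boxes. Cdc20 had them a few bases from a CCAAT box. The stretch of Cenpf held a CCAAT box and no CHR letters, which lay past its start. Mcm6 had overlapping E2F words at 2 places. Mcm3 had CCAAT boxes without CHR letters, and the E2F match counted for it above was not within the 250 bases before its start.

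All 36 members were above 0 in each of the 24 libraries, and per length of exon Pcna and Mcm2 to Mcm7 stood above all mitotic members except Cenpf. Values are the authors' normalized counts, put on a common scale over the 24 libraries, and only values divided by the exon length are compared between genes. Pcna, at chr2:132249162-132253314, led with a mean of 352 per kb of exon, and Mcm2 to Mcm7 had means of 28.1 (Mcm5) to 70.1 (Mcm4) per kb. Rrm2, a subunit of ribonucleotide reductase, had 18.1 per kb and Tyms, thymidylate synthase, 8.91 per kb. Among the mitotic members Cenpf had 32.7 per kb, and the other 26 ran from 2.07 (Bub1, a checkpoint kinase) to 19.5 per kb (Cdc20, which activates the APC/C). Cenpf, a large kinetochore protein also known in mice as LEK1, lies at chr1:189640606-189688086, and its loss in the mouse heart is known to cause dilated cardiomyopathy.

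The mitotic members also varied more between libraries of the same group. The SD within groups, on the log2 scale, had a median of 0.179 over the 9 S phase members (0.130 for Pcna to 0.447 for Rrm2) and of 0.558 over the 27 mitotic members (0.362 for Kif11 to 0.876 for Aurkb). Level moved with this spread. Over all 2970 genes with a mean of 10 to 100 the median SD was 0.484, beside 0.549 for the 26 members there, and over all 6908 genes with a mean of 100 to 1000 it was 0.166, beside 0.179 for the 9 members there. Of these members, Mcm3 (0.211), Mcm5 (0.209), Mcm4 (0.179) and Mcm6 (0.169) were above the median of their level, and Mcm2, Mcm7 and Pcna below. Mki67 (mean 150, SD 0.597) and Cenpf were further above it, Cenpf with an SD of 0.695 that was larger than in 99.4% of the genes of its level. Its highest library was 15.1 times its lowest, against 1.44 times for Pcna.

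**Figure D1:**
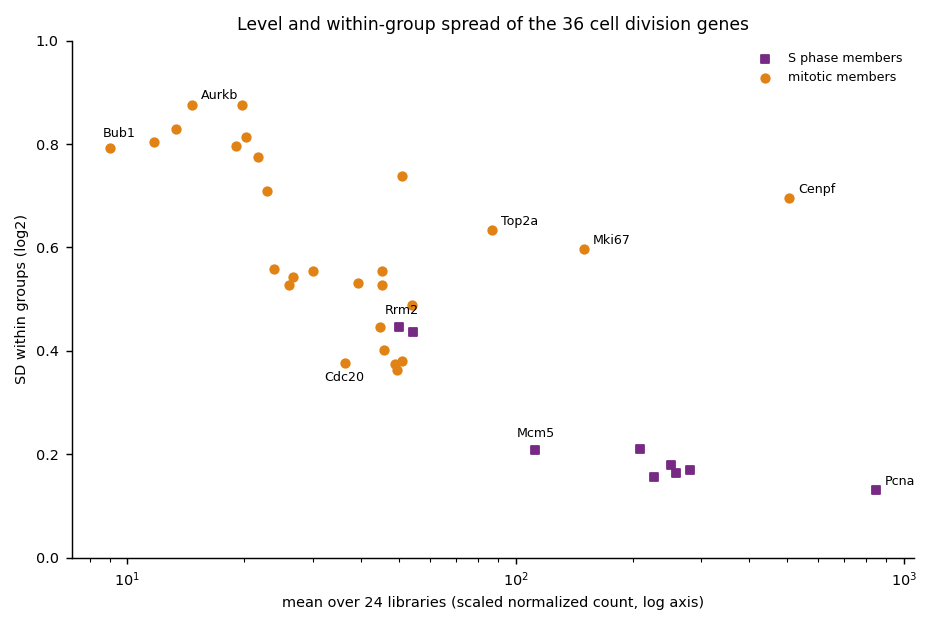
Each point is 1 of the 36 genes, with its mean over 24 libraries (scaled normalized count, log axis) against the SD within groups of 4 libraries (log2, pooled over 6 groups). Squares are the 9 S phase members and circles the 27 mitotic members. Spread is lower at higher levels, from Aurkb at 0.876 to Pcna at 0.130, and Cenpf stands apart at a mean of 505 with an SD of 0.695.

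The series as a whole bears on these values in a few ways. On the deposited scale the median log2 difference over all genes was −0.36 for male Ctrl against Ctrl and −0.28 for Ctrl + AngII against Ctrl, which the common scale takes out. The depth of the libraries relative to their median ran from 0.457 (library 40) and 0.525 (library 42) to 1.90 (library 38), so that a read stood for 0.554 to 2.31 units of value, and the low mitotic genes rest on few reads in the shallow libraries. The libraries of a group differed by a median of 0.128 to 0.212 (log2) between genes, and none was counted as a duplicate. The defining cardiomyocyte markers were all present, with a summed level of 2129070 to 2576080 over the 10 genes of the list. Of 10 activated fibroblast markers, 8 were called higher in Ctrl + AngII than in Ctrl (summed level 27311 to 44040, against 9333 to 13193) and 8 in Ovx + AngII than in Ovx (27693 to 32655, against 11947 to 16417). In Ctrl + AngII and Ovx + AngII, 4 and 3 of 10 fibroblast markers, 1 and 0 of 10 pericyte and smooth muscle markers and 1 and 0 of 4 atrial markers tested were also called higher, and the cardiomyocyte, endothelial, macrophage, neutrophil, lymphocyte, erythroid and adipocyte lists held 0 calls. In bulk samples, fewer cells of a type and less RNA per cell cannot be told apart.

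AngII in control females asks whether pressure and hormone load change these genes in aged hearts. Here and below, a gene was called where the limma adjusted p did not exceed 0.05 and the log2 fold change reached 1 in either direction. Of the 35 members tested (Bub1, with a female mean of 8.49, was under the minimum mean of 10), 0 were called in Ctrl + AngII against Ctrl and 0 passed the adjusted p alone, and 4 had an unadjusted p under 0.05. Over all 13816 genes tested, 1.19% were called, 8.17% passed the adjusted p alone and 21.6% had an unadjusted p under 0.05. The estimates leaned to lower values, with a median log2 fold change of −0.43 over the 26 mitotic members tested and 22 of them below 0, against a median of −0.01 and 49.0% above 0 over all genes tested. The 9 S phase members had a median of −0.10. Against the same Ctrl libraries, 19 of the 26 mitotic members were also below 0 in Ovx (median −0.27) and 20 in male Ctrl (median −0.22). In Ctrl + AngII against Ctrl, 8 of the 9 lymphocyte markers tested were also below 0 (median −0.62, summed level 85.9 to 176, against 109 to 399). So were both neutrophil markers tested (median −0.56, summed level 63.9 to 138 in Ctrl + AngII, against 76.8 to 524 in Ctrl). In Ctrl both upper ends were library 39, and the next highest sums were 171 and 149. Of 12 macrophage markers 10 were above 0 and 2 below (median 0.25, 1 past the limma adjusted p alone). Of 6 erythroid markers tested 5 were above 0 and 1 below (median 0.20). The part of these lists in the values of the members was not tested.

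Cenpf had the lowest values of the series in AngII hearts. It stood at 79.7, 293, 266 and 158 in Ctrl + AngII, against 1205, 418, 306 and 340 in Ctrl. All 4 Ctrl + AngII libraries were below all 4 Ctrl libraries, and library 37 alone was far above the rest. The log2 fold change was −1.43 (SE 0.475, limma adjusted p 0.0741), which was not called, with the smallest exact permutation p that 4 against 4 allow (0.0286, two-sided over 70 labelings). Library 37 also had the highest summed cardiomyocyte markers of Ctrl (2576080, against 2141030 to 2273240), while library 40, with the lowest Cenpf value, had the highest of Ctrl + AngII (2404110). The part of these markers and of the activated fibroblast markers in the Cenpf values was not tested. With all 24 libraries in the fit, or without library 39, the adjusted p was 0.0340 and 0.0472, which are calls. Over all libraries left out in turn the log2 fold change was −1.67 to −0.98, and it was weakest without library 37 (adjusted p 0.258).

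Prc1, which bundles the antiparallel microtubules of the central spindle, stood at 51.1, 12.3, 24.4 and 31.3 in Ctrl + AngII, against 69.2, 54.6, 53.8 and 72.3 in Ctrl. These groups did not overlap either, and the log2 fold change was −1.20 (SE 0.446, limma adjusted p 0.113). Kif23, the motor of the centralspindlin complex, stood at 27.4, 33.7, 29.4 and 22.4 in Ctrl + AngII, against 56.4, 33.0, 84.8 and 55.8 in Ctrl, and its log2 fold change was −0.94 (SE 0.388, limma adjusted p 0.157). Ccna2, the cyclin of S phase and early mitosis, had a log2 fold change of −0.84 (limma adjusted p 0.221). With a library left out these estimates were −1.51 to −0.85 for Prc1, −1.18 to −0.73 for Kif23 and −1.18 to −0.54 for Ccna2, with the estimate nearest 0 without library 41, 39 and 41 in that order. On the values as deposited, which keep the shift of −0.28 over all genes, Cenpf, Prc1, Kif23 and Ccna2 were called lower. In all 3 members were lower in every Ctrl + AngII library than in any Ctrl library (Mcm5, Cenpf and Prc1), 8.57% of the 35 tested, beside 5.91% of all genes tested, and 0 were higher throughout, beside 6.9%.

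In ovariectomized females the same infusion gave the single call among the members. Of 35 members, 1 was called lower in Ovx + AngII than in Ovx and 0 higher, beside 0.362% and 0.753% of all genes tested (1.11% in both directions). Cenpf stood at 199, 150, 116 and 326 in Ovx + AngII, against 975, 957, 287 and 404 in Ovx. The groups overlapped by library 54 of Ovx + AngII, which was above library 45 of Ovx, and libraries 43 and 44 of Ovx carried the high values. The log2 fold change was −1.64 (SE 0.475, limma adjusted p 0.0335), with an exact permutation p of 0.0571. The call was lost without any 1 of libraries 43, 44, 46, 47 and 48 (adjusted p 0.0510 to 0.116, log2 fold change −1.68 to −1.39), with no filter on low values (0.0581), with the variance fitted without a trend (0.0815) and without libraries 37 and 48 together (0.0607). The activated fibroblast markers were higher in the same comparison, and their part in the Cenpf values was not tested.

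Mcm7, a subunit of the replicative helicase at chr5:138164583-138172422, was the other member past the adjusted p there. It stood at 221, 187, 243 and 236 in Ovx + AngII, against 296, 298, 279 and 303 in Ovx. The groups did not overlap, and the log2 fold change was −0.41 (SE 0.115, limma adjusted p 0.0267), under the fold asked for a call. Of all genes tested 10.2% passed the adjusted p alone, 5.08% on the lower side, and 1 of the 35 members besides Cenpf did. Without 1 of libraries 44, 47 and 53 the adjusted p was 0.0655, 0.0959 and 0.0632, and without libraries 49 to 54 it was 0.0941. Mcm7 overlaps Ap4m1 and Cops6 on the other strand and the host region of Mir106b, Mir93 and Mir25 on its own, and although the library kit marks strand, whether the counting used it is not stated. Ap4m1 and Cops6 had log2 fold changes of −0.15 and 0.04 there (limma adjusted p 0.752 and 0.813).

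Among the other members in Ovx females, Mcm2 stood at 168, 194, 205 and 220 in Ovx + AngII, against 226, 245, 225 and 253 in Ovx. The 2 groups did not overlap, with a log2 fold change of −0.28 (limma adjusted p 0.131). In all 2 members, Mcm2 and Mcm7, were lower in every Ovx + AngII library, 5.71% of those tested beside 8.82% of all genes. Higher throughout were 0 members, beside 1057 of all 13816 genes tested. Kif11, the motor that pushes spindle poles apart, had the highest positive estimate, at 36.2, 52.3, 85.4 and 64.7 in Ovx + AngII, against 37.1, 34.7, 30.7 and 24.6 in Ovx. Its log2 fold change was 0.84 (SE 0.278, limma adjusted p 0.0618), and without library 46 it was called higher (1.05, adjusted p 0.0217). Over all libraries left out in turn it was 0.65 to 1.05, lowest without library 48. The median over the 26 mitotic members tested was −0.05, with 14 of them below 0. Library 48 was the highest of Ovx + AngII for 20 of the 26 mitotic members other than Cenpf. With a library left out in turn, the median over all members tested ran from −0.14 to 0.19.

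**Figure D2:**
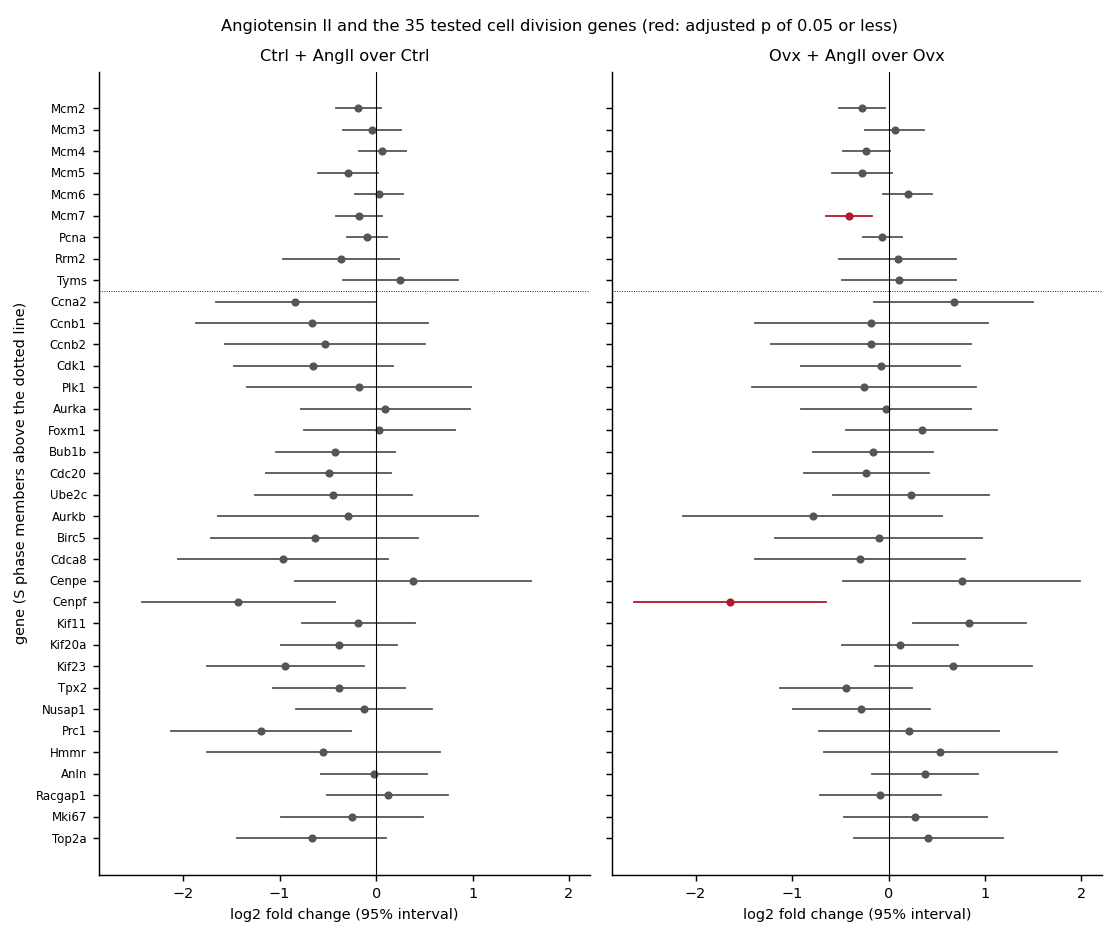
Points are limma log2 fold changes of the 35 tested genes and lines their 95% intervals, for Ctrl + AngII over Ctrl (left) and Ovx + AngII over Ovx (right), with 4 libraries a group. Red marks an adjusted p of 0.05 or less, which Cenpf (−1.64) and Mcm7 (−0.41) reached in Ovx females and no member reached in control females.

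The difference between both AngII effects was tested as an interaction, positive where the AngII effect was higher in Ovx than in control females. By limma 0 of 35 members were called, 0 passed the adjusted p alone and 4 had an unadjusted p under 0.05, against 0.00724% called, 0.0579% past the adjusted p alone and 10.4% with an unadjusted p under 0.05 over all genes tested. These 4 were Kif23 (1.61, SE 0.549), Ccna2 (1.51, SE 0.555), Prc1 (1.41, SE 0.630) and Kif11 (1.02, SE 0.393), with limma adjusted p of 0.319 to 0.442. All 4 had their highest Ovx + AngII value in library 48 (78.2, 102, 116 and 85.4 in that order). With a library left out their interactions were 1.21 to 1.90, 1.17 to 1.86, 0.99 to 1.82 and 0.83 to 1.24. For Cenpf the interaction was −0.21 (95% interval from the same fit −1.62 to 1.20), so the AngII effects on Cenpf were not shown to differ.

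Ovariectomy without AngII left 0 of 35 members called by limma and 0 past the adjusted p alone, with 3 at an unadjusted p under 0.05, beside 0% called, 0.109% and 12.4% of all genes tested. Kif23 stood at 26.6, 18.3, 14.1 and 27.5 in Ovx, against 56.4, 33.0, 84.8 and 55.8 in Ctrl, a log2 fold change of −1.34 (SE 0.388, limma adjusted p 0.148). Kif11 stood at 37.1, 34.7, 30.7 and 24.6 in Ovx, against 39.2, 55.5, 68.8 and 62.0 in Ctrl (−0.79, limma adjusted p 0.237). Ccna2 stood at 43.8, 23.7, 28.7 and 30.4 in Ovx, against 47.9, 50.5, 64.8 and 68.5 in Ctrl (−0.87, limma adjusted p 0.367). In these 3 members, 8.57% of those tested beside 2.57% of all genes lower throughout, every Ovx library was below every Ctrl library. Higher throughout were 0 members, beside 476 of all 13816 genes tested. All 6 erythroid markers tested were below 0 as well (median −1.40, 4 at an unadjusted p under 0.05, summed level 10582 to 14521 in Ovx, against 14264 to 56349 in Ctrl), and so were both neutrophil markers tested (median −2.13, summed level 37.9 to 50.1 in Ovx, against 76.8 to 524 in Ctrl, with Elane at 0 in every library). Of 10 pericyte and smooth muscle markers 9 were above 0 (median 0.31, 7 at an unadjusted p under 0.05, summed level 39878 to 43991 in Ovx, against 37171 to 39088 in Ctrl). Of 10 activated fibroblast markers 8 were above 0 and 2 below (median 0.35, 4 at an unadjusted p under 0.05). Of 10 fibroblast markers 9 were above 0 and 1 below (median 0.15, 2 at an unadjusted p under 0.05). Of 9 lymphocyte markers tested 8 were above 0 and 1 below (median 0.41). Of 12 macrophage markers 9 were below 0 and 3 above (median −0.13, 3 at an unadjusted p under 0.05). By limma 0 markers of these lists passed the adjusted p, and their part in the values of the members was not tested. Ccna2 overlaps Exosc9 on the other strand, whose log2 fold change was −0.15. The Ctrl libraries are the same as in the AngII comparison of control females and in the comparison of the sexes. The low estimates of Kif23, of Ccna2 and of the mitotic members as a set in these comparisons are therefore not independent.

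Ovx + AngII against Ctrl + AngII also gave 0 calls among 35 members by limma, 0 past the adjusted p alone and 1 at an unadjusted p under 0.05 (Mcm7, −0.24, limma adjusted p 0.422), beside 0.0941%, 1.01% and 11.5% of all genes tested. Of the 26 mitotic members tested 23 had an estimate above 0, with a median of 0.19. This rested on library 48, since without it 13 of the 25 still tested were above 0, with a median of 0.04. No member had groups that did not overlap, beside 3.28% of all genes higher and 3.53% lower throughout.

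Library 48 of Ovx + AngII stood apart in the mitotic genes. The 26 mitotic members other than Cenpf summed to 599, 927, 1700 and 1038 in Ovx + AngII, against 1219, 754, 699 and 1046 in Ovx. Library 48 was the highest of its group for 20 of these 26 and the highest of all 24 libraries for 9, while its Cenpf value, 116, was the lowest of its group. Top2a, the topoisomerase that untangles sister chromatids, reached 198 there, against 44.7 to 102 in the other 3 Ovx + AngII libraries, and Ccnb1, the cyclin of mitotic entry, 34.4 against 3.44 to 7.85. The sum of 12 macrophage markers, of which 0 were at 0 in every library, was 12739 in library 48 and 10587 to 11446 in the rest of the group, and its relative depth was 1.17. The summed cardiomyocyte markers were 2270620 there and 2129070 to 2143510 in the rest, and the pericyte and smooth muscle markers 33741 and 38289 to 41124. Their part in these values was not tested.

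Other libraries also had a common direction. Library 34 of male Gx was the highest of its group for 21 of the 26 members, and the sums were 1498, 969, 1023 and 735 in male Gx, against 1222, 708, 977 and 1053 in male Ctrl. Library 46 of Ovx + AngII was the lowest of its group for 18 of the 26 and library 50 of male Gx for 19. In Ctrl, library 51 was the highest for 16 and library 37 the lowest for 14. In Ctrl + AngII the sums were 996, 718, 930 and 801, against 899, 1039, 1267 and 1346 in Ctrl. These groups overlapped by libraries 40 and 42 of Ctrl + AngII and library 37 of Ctrl.

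**Figure D3:**
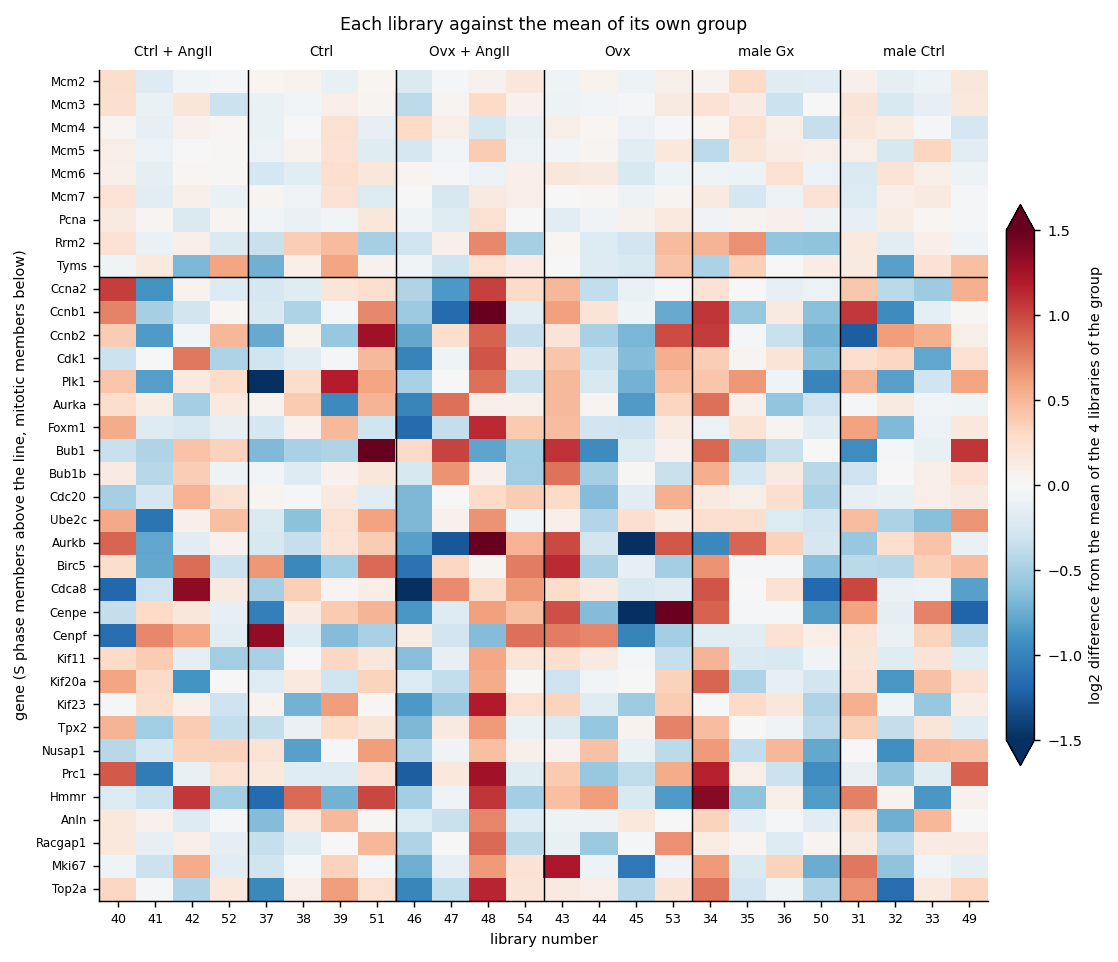
Colour gives the log2 difference of each library from the mean of the 4 libraries of its own group, for 36 genes in rows and 24 libraries in columns, with S phase members above the line. Library 48 (Ovx + AngII) and library 34 (male Gx) are red for most mitotic members, being highest of their group for 20 and 21 of 26, and library 37 (Ctrl) is red for Cenpf at 1205.

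**Figure D4:**
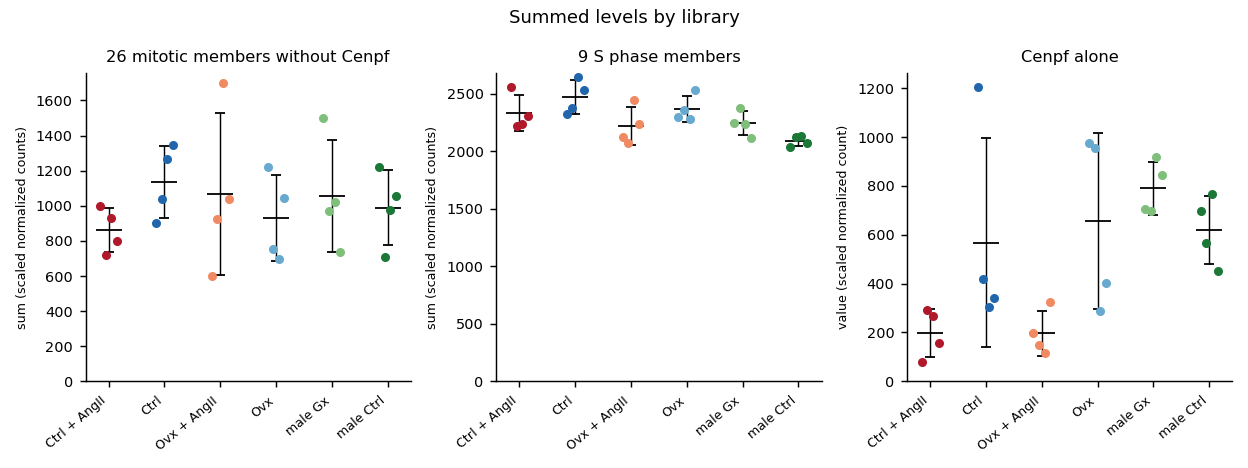
Points are libraries, bars the mean and SD of 4, for the sum of 26 mitotic members without Cenpf, the sum of 9 S phase members and Cenpf alone (scaled normalized counts). The mitotic sums overlap between all groups (599 to 1700), and Cenpf is at 79.7 to 326 in both AngII groups and 287 to 1205 in the other 4.

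In males, 0 of 35 members were called by limma in male Gx against male Ctrl, 0 passed the adjusted p alone and 1 had an unadjusted p under 0.05, beside 0.029%, 0.0797% and 8.54% of all genes tested. Pcna stood at 849, 909, 924 and 832 in male Gx, against 706, 833, 784 and 759 in male Ctrl, a log2 fold change of 0.19 (SE 0.0900, limma adjusted p 0.572). Cdc20 stood at 36.0, 34.4, 38.4 and 23.0 in male Gx, against 39.2, 39.8, 46.0 and 47.0 in male Ctrl (−0.39). It was the 1 member whose groups did not overlap. Lower throughout were thus 2.86% of those tested beside 2.67% of all genes, and higher throughout 0 members beside 328 of all 13799 genes tested. Cenpf was more even in males than in females, with 704, 696, 919 and 844 in male Gx, against 698, 566, 765 and 451 in male Ctrl. Its log2 fold change was 0.37, and the difference in spread between the sexes was not tested.

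Male Ctrl against Ctrl gave estimates below 0 for all 9 S phase members, with a median of −0.23. Library 39 was the highest Ctrl library for 7 of these 9. Of the 26 mitotic members tested 20 were below 0 too, with a median of −0.22. Over all genes tested the median was −0.004 and 48.9% were above 0. In the same comparison 3 of 4 adipocyte markers tested were called lower (summed level 9693 to 10962 over the list of 8 in male Ctrl, against 10402 to 12875 in Ctrl) and 1 of 4 atrial markers (1309 to 1498 over the list of 7, against 1499 to 2006), with 0 of either list at 0 in every library. The 4 adipocyte markers tested had a median log2 fold change of −2.51, from −3.37 to −0.17. All 12 macrophage markers were below 0 with 0 called (median −0.18, summed level 9202 to 11362 in male Ctrl, against 9249 to 15391 in Ctrl). The upper end in Ctrl was library 39, and the next highest macrophage sum was 11151. The part of these 3 lists in the values of the members was not tested. None of the S phase members was called by limma, 0 of all 35 members passed the adjusted p and 4 had an unadjusted p under 0.05 (Mcm5, Mcm6, Mcm7 and Pcna), beside 0.232%, 1.2% and 12.9% of all genes tested. With a library left out these 4 had log2 fold changes of −0.51 to −0.32, −0.46 to −0.28, −0.37 to −0.23 and −0.27 to −0.17 in that order. Mcm6 stood at 204, 276, 253 and 227 in male Ctrl, against 257, 274, 368 and 347 in Ctrl, a log2 fold change of −0.37 (SE 0.121, limma adjusted p 0.154). Pcna stood at 706, 833, 784 and 759 in male Ctrl, against 876, 841, 879 and 1016 in Ctrl, and every male Ctrl library was below every Ctrl library (−0.23, limma adjusted p 0.261). Bub1b, a kinase of the checkpoint, was the other member lower throughout, at 30.2, 37.7, 40.1 and 43.7 in male Ctrl, against 52.3, 47.2, 56.5 and 60.6 in Ctrl. These 2 members were 5.71% of those tested, beside 2.62% of all genes lower throughout. Higher throughout were 0 members, beside 522 of all 13799 genes tested. The absence of calls depends on the common scale. On the values as deposited, where all genes were shifted by −0.36, 12 members passed the adjusted p and Ccna2 was called lower.

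The difference of the gonadectomy effects between males and females gave 0 calls by limma, 0 past the adjusted p alone and 4 at an unadjusted p under 0.05 (Kif23, Ccna2, Anln and Pcna), beside 0.00725%, 0.00725% and 6.07% of all genes tested. Kif23 had the highest estimate, 1.64 (SE 0.511, limma adjusted p 0.527).

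The remaining members given by library are those with the highest mean of their role before division by exon length. Per kb of exon, Ccnb2 (14.1), Cdc20 (19.5) and Rrm2 (18.1) were above the members given here for their roles, Foxm1 (7.88), Bub1b (10.7) and Tyms (8.91). Mki67, the proliferation marker that coats mitotic chromosomes, stood at 123, 103, 190 and 115 in Ctrl + AngII, against 125, 151, 195 and 152 in Ctrl, and at 87.8, 134, 229 and 170 in Ovx + AngII, against 280, 114, 57.0 and 116 in Ovx. The Mki67 ranges overlapped in both pairs, and it stood at 227, 124, 182 and 86.0 in male Gx, against 260, 98.3, 146 and 137 in male Ctrl. Its log2 fold changes were −0.25 and 0.28 under AngII in control and in Ovx females.

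Foxm1, the transcription factor of late cell cycle genes, stood at 64.8, 38.2, 37.1 and 40.3 in Ctrl + AngII, against 35.5, 45.0, 60.5 and 34.7 in Ctrl, and at 20.6, 36.7, 104 and 62.3 in Ovx + AngII, against 51.4, 30.0, 29.9 and 40.4 in Ovx. Both pairs of Foxm1 ranges overlapped. Bub1b stood at 43.8, 29.6, 52.0 and 37.8 in Ctrl + AngII, against 52.3, 47.2, 56.5 and 60.6 in Ctrl, and at 35.8, 68.4, 44.9 and 29.3 in Ovx + AngII, against 84.1, 33.3, 48.3 and 37.5 in Ovx. Birc5, the survivin subunit of the chromosomal passenger complex, stood at 20.2, 9.32, 30.4 and 13.1 in Ctrl + AngII, against 41.9, 13.0, 18.0 and 48.2 in Ctrl, and at 8.35, 24.0, 19.7 and 33.3 in Ovx + AngII, against 46.3, 14.5, 18.9 and 14.2 in Ovx. Their estimates under AngII were not past any threshold used here.

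Kif20a, a motor of cytokinesis, stood at 75.9, 61.2, 26.3 and 50.3 in Ctrl + AngII, against 57.5, 72.4, 52.9 and 82.9 in Ctrl, and at 47.4, 42.0, 80.8 and 55.4 in Ovx + AngII, against 40.4, 48.8, 50.3 and 63.9 in Ovx. Racgap1, the partner of Kif23 in centralspindlin, stood at 58.0, 47.3, 55.4 and 47.2 in Ctrl + AngII, against 37.2, 42.6, 47.7 and 67.7 in Ctrl, and at 34.2, 47.2, 86.2 and 35.6 in Ovx + AngII, against 46.2, 33.7, 49.6 and 81.3 in Ovx. Racgap1 had log2 fold changes of 0.12 and −0.08 under AngII, beside −0.94 and 0.67 for Kif23. Tyms stood at 52.7, 61.0, 34.3 and 83.5 in Ctrl + AngII, against 27.6, 48.6, 70.1 and 48.3 in Ctrl, and at 60.6, 50.7, 73.4 and 68.3 in Ovx + AngII, against 57.7, 50.6, 49.5 and 78.7 in Ovx.

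**Figure D5:**
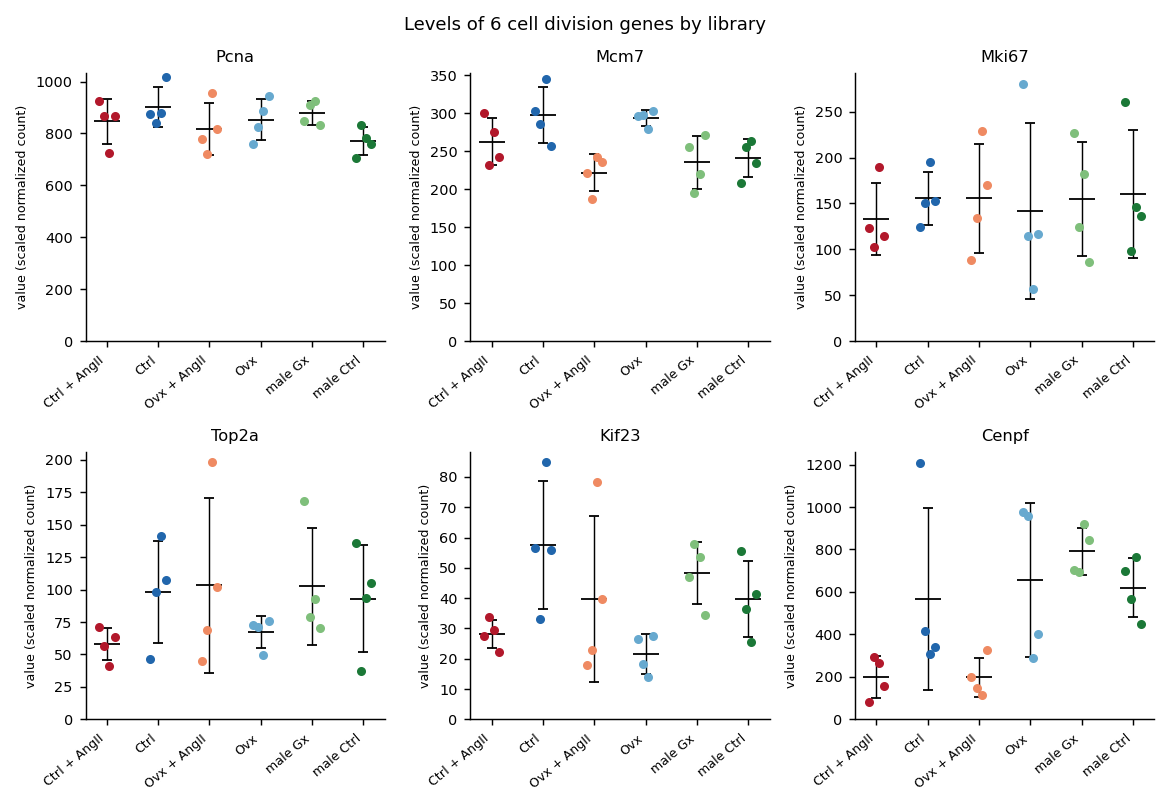
Points are libraries, bars the mean and SD of 4, for Pcna, Mcm7, Mki67, Top2a, Kif23 and Cenpf (scaled normalized counts, axes from 0). Mcm7 is at 187 to 243 in Ovx + AngII, below all Ovx libraries (279 to 303), and Top2a and Kif23 each have a high library 48, at 198 and 78.2.

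Cenpf and Prc1 aside in control females, and Cenpf and Kif11 aside in Ovx females, the members tested had estimates under AngII between −0.96 (Cdca8, borealin of the passenger complex) and 0.38 (Cenpe, a kinetochore motor) in control females and between −0.79 (Aurkb, the kinase of that complex) and 0.76 (Cenpe) in Ovx females. Ccnb2, Cdk1, Plk1, Aurka, Ube2c, Tpx2, Nusap1, Hmmr, Anln, Mcm3, Mcm4 and Rrm2 lay within these ranges, and none of them was called in any of the 8 comparisons. Members that overlap a gene on the other strand are Mcm7, Ccna2, Cdc20, Ube2c, Cdca8, Kif20a, Nusap1 and Prc1, and Pcna, Tyms, Ccnb1 and Ccnb2 have annotated pseudogenes that could share reads, so their values are less certain. Rccd1, which overlaps Prc1, had a log2 fold change of −0.23 in Ctrl + AngII against Ctrl, beside −1.20 for Prc1. In Ovx + AngII against Ovx it was 0.58 for Rccd1 (limma adjusted p 0.0451), with every Ovx + AngII library above every Ovx library, beside 0.21 for Prc1. The interaction was 0.81 for Rccd1 (limma adjusted p 0.263) and 1.41 for Prc1.

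Other genes of the pathway were read from 4 lists of 147 genes, of which 132 were tested in females. In Ctrl + AngII against Ctrl 1 of them was called, lower, and in Ovx + AngII against Ovx 1, higher, beside 1.19% and 1.11% of all genes tested. These were 1 of 49 other DNA replication genes and 1 of 7 Cdk inhibitors, while 0 of 47 other mitotic genes and 0 of 29 G1 to S control genes were called in either. The first was Brca1, which repairs DNA breaks, at 6.95, 10.1, 12.0 and 7.72 in Ctrl + AngII, against 16.8, 21.4, 41.9 and 32.2 in Ctrl. Its log2 fold change was −1.46 (SE 0.432, limma adjusted p 0.0434), and the call was lost when any 1 of 11 of the 16 female libraries was left out (38, 39, 40, 41, 42, 45, 46, 47, 51, 52 and 54, adjusted p 0.0508 to 0.109), with log2 fold changes of −1.67 to −1.24 over all libraries left out in turn. It was also lost with no filter on low values (0.0597), with library quality weights (0.0582) and without libraries 49 to 54 (0.160). The other was Cdkn1a, the p21 inhibitor of cyclin-dependent kinases, at 1096, 1645, 2108 and 1640 in Ovx + AngII, against 699, 639, 473 and 728 in Ovx. Its log2 fold change was 1.33 (SE 0.194, limma adjusted p 0.000207) and it was 0.67 in Ctrl + AngII against Ctrl (limma adjusted p 0.0398), and the call in Ovx females held under every alternative run.

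On the adjusted p alone, 2 pathway genes were higher (Cdkn1a and E2f3) and 4 lower (Brca1, Dut, Pttg1 and Stmn1) in Ctrl + AngII, and 1 was higher (Cdkn1a) and 3 lower (Cdkn2c, Pttg1 and Rpa1) in Ovx + AngII. These 6 and 4 of 132 stand beside 8.17% and 10.2% of all genes tested, which are larger shares. Pttg1, securin, averaged 1429 ± 112 in Ctrl + AngII and 1773 ± 188 in Ctrl (SD, n = 4 each). Cdkn2c, an inhibitor of Cdk4 and Cdk6, averaged 207 ± 7.56 in Ovx + AngII and 325 ± 45.4 in Ovx (SD, n = 4 each). Over the 47 other mitotic genes tested, 38 had estimates below 0 in Ctrl + AngII (median −0.34) and 26 in Ovx + AngII (median −0.04). In the 5 comparisons other than these and that of the sexes 0 pathway genes passed the limma adjusted p, with 7 to 13 at an unadjusted p under 0.05. In male Ctrl against Ctrl, 1 did (E2f3, higher, 0.45, limma adjusted p 0.0374). Of the 46 other mitotic genes tested there, 37 were below 0 (median −0.20).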

How the data were processed

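Left ventricular mRNA was measured in 24 libraries, 4 in each of 6 groups, which were taken from the submitters' sample labels. The members and gene lists were chosen with earlier results of these data known. Reads were aligned by the authors with STAR (UCSC mm10) and the counts normalized by DESeq2 on BaseSpace, and the submitters' notes also name Salmon, all without versions. The deposited values are therefore a normalized signal per gene, with decimals and no value below 0. Whole reads could not be recovered, so no count model was fitted, no interval that needs counts is given, and depth was read only as relative, from the most frequent value below 5 in a library. Rows named by dates (14, with 0.0552% of the sum) and 1 unnamed row were left out, and 0 columns lacked a sample.

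Libraries were put on a common scale by median-of-ratios factors over 24 libraries. Groups were compared with limma (version 3.58.1, R version 4.3.3; lmFit and contrasts, then eBayes with a variance trend) on log2(value + 1), which understates changes of low genes, over genes with a mean of at least 10, with Benjamini-Hochberg adjusted p-values across the whole table tested. One fit held the 16 female libraries (13816 genes) and another all 24, for the comparisons with males (13799 genes). Calls needed an adjusted p no higher than 0.05 together with a log2 fold change of 1 or more in either direction. Single genes were also compared by an exact two-sided permutation test over 70 labelings (Python 3.11.15 with numpy 2.4.6, smallest p 0.0286). P-values measure the spread between these pools.

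All 36 members are accounted for by role. Values by library are given for members called, for those past the adjusted p alone and for the highest mean of each role, and further members named for an unadjusted p under 0.05, groups that did not overlap or a library that stood apart were chosen after their values were seen. Of the 4 pathway lists (other mitotic genes, other DNA replication genes, G1 to S control genes and Cdk inhibitors), 4 symbols were respelled to the table's. Marker lists covered adipocytes, atrial cells, cardiomyocytes, endothelium, erythroid cells, fibroblasts at rest and activated, lymphocytes, macrophages, neutrophils, and pericytes with smooth muscle. Gene positions are from GENCODE M21 and promoters from RefSeq, both GRCm38 (mm10). Alternatives were the values as deposited, an upper-quartile scale, pseudocounts of 0.5 and 5, no filter and a minimum mean of 50, the variance without a trend, library weights, the fit without libraries 49 to 54 or with all 24, and each library left out. Leaving out libraries 37 and 48 was chosen after seeing the data.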

Additional observations from a re-analysis of the deposited data

Results flagged for a closer look

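In 12 of 216 sets of 4 libraries (36 members in 6 groups), the highest or lowest library stood further from the others than Dixon's test allows at 95%, where chance flags about 1 in 20 sets, or 10.8 here. In Ctrl + AngII, Foxm1 was 64.8 in library 40 and 37.1 to 40.3 in the others, and Hmmr was 17.6 in library 42 and 5.19 to 6.71 in the others. In Ctrl, Cenpf was 1205 in library 37 and 306 to 418 in the others, and Bub1 was 27.4 in library 51 and 4.92 to 5.86 in the others. In Ovx + AngII, library 48 had Ccnb1 at 34.4 and Anln at 85.3, where the others had 3.44 to 7.85 and 40.2 to 44.1. In Ovx, Birc5 was 46.3 in library 43 and 14.2 to 18.9 in the others, and Top2a was low in library 45, at 49.4, with 71.4 to 75.8 in the others. In male Gx, Mcm6 was 265 in library 36 and 212 to 215 in the others, and Kif20a was 80.0 in library 34 and 31.2 to 39.5 in the others. In male Ctrl, Cdk1 was low in library 33, at 13.1, with 27.5 to 29.1 in the others, and Racgap1 was low in library 32, at 39.9, with 57.3 to 58.0 in the others. No contrast between effects of the members passed the adjusted p, so no member is listed here for a difference between effects.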

How the results depend on the processing

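Of 480 values of the counts of members called under 36 alternatives (24 of them leaving out a library), 467 kept the count. In the main fit these counts were 0, except for members called lower in Ovx + AngII against Ovx. That count was kept in 19 of the 27 alternatives run for it. Members called lower in Ctrl + AngII against Ctrl numbered 0 in the main fit, 4 on the values as deposited, 1 with all 24 libraries in the fit and 0 to 1 with a library left out. Members called lower in Ovx + AngII against Ovx numbered 1 in the main fit, 0 with no filter on low values, 0 with the variance fitted without a trend, 0 without libraries 37 and 48 (chosen after seeing the data) and 0 to 1 with a library left out, while members called higher there numbered 0 to 1 with a library left out. Members called lower in male Ctrl against Ctrl numbered 1 on the values as deposited and 0 otherwise. The values as deposited carry a shift of all genes, and a wider fit lends more libraries to the spread; the cause of the other changes was not tested. Cenpf in Ovx females kept a negative log2 fold change under every alternative (−2.08 to −1.39), as did Mcm7 (−0.50 to −0.33). No single gene recomputed under the alternatives changed sign, and Mki67, Foxm1, Racgap1, Tyms and the other genes named were not recomputed. The median log2 fold change over the members tested crossed 0 in Ovx + AngII against Ovx (−0.15 to 0.19), in male Gx against male Ctrl (−0.02 to 0.22) and in Ovx + AngII against Ctrl + AngII (−0.02 to 0.34). No paired analysis was possible because the library numbers are unique to each sample and shared by no groups. The values carry no read counts, so precision at the level of the low mitotic genes is limited to what the 4 pools of a group show.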
